A study of Mus musculus with 99 samples.

Results

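Voltage-gated calcium channel subunits were followed through 99 single hair cells of the mouse cochlea. The 10 genes examined were the L-type alpha-1 genes Cacna1c and Cacna1d, the beta genes Cacnb1 to Cacnb4 and the alpha-2-delta genes Cacna2d1 to Cacna2d4. They were taken by name from a table of 55291 gene symbols, and all 10 were found. Of these, 9 had at least 1 read, and 8 reached 1 CPM (counts per 1000000) in the summed reads of 1 or both groups of cells.

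The study asked how far ectopic Tbx2, a transcription factor of inner hair cells (IHCs), turns outer hair cells (OHCs) into IHCs. The first group held 32 wild type OHCs of postnatal day 30 from Slc26a5-CreER/+; Ai9/+ mice, where Ai9 is a tdTomato reporter. The second held 67 converted IHCs (cIHCs) of postnatal day 42 from Slc26a5-CreER/+; Rosa26Tbx2/+ mice, which are OHCs made to express Tbx2. All were C57BL/6, carried the inducible Cre under the OHC gene Slc26a5, were picked by hand for red fluorescence, and were made into full-length cDNA libraries. Age and genotype differ together between the groups and cannot be told apart. The mix of cells with female and male marker reads, given below, also differed between the groups. The day of induction is not given in the sources used here, and endogenous IHCs were not analysed here. The protocol text, the same for all 99 samples, speaks of endogenous IHCs and iOHCs as the picked cells, whereas the titles give wild type OHCs and cIHCs; the groups here follow the titles. Since no label ties a cell to an animal, each group stands as 1 sample. The differences below have no replicate check and none was tested. Intervals cover counting error only and treat reads, or cells for shares of cells, as independent. Amplified reads are not independent molecules and cells may share an animal, so the intervals are likely too narrow.

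A voltage-gated calcium channel is built around an alpha-1 subunit, which forms the pore and senses voltage. A cytosolic beta subunit docks on the linker between the first and the second domain of alpha-1 and helps the channel reach the membrane, and an extracellular alpha-2-delta subunit supports its trafficking and current. In hair cells Cav1.3, the product of Cacna1d, carries most of the calcium current that triggers release of glutamate at the ribbon synapse. IHCs use it to drive the auditory nerve, while OHCs mainly amplify sound mechanically.

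In GENCODE M21 on the mm10 (GRCm38) genome, Cacna1d lies at chr14:30039939-30491455 and Cacna2d3 at chr14:28904943-29721864, both on the minus strand. Cacna1c (chr6:118587240-119196418, minus) and Cacna2d4 (chr6:119236526-119352407, plus) are close neighbours. The beta genes are at chr11:98001508-98023034 (Cacnb1, minus), chr2:14603088-14987908 (Cacnb2, plus), chr15:98630840-98644529 (Cacnb3, plus) and chr2:52428320-52676831 (Cacnb4, minus). Cacna2d1 is at chr5:15934691-16374511 and Cacna2d2 at chr9:107399612-107529343, both on the plus strand. The annotation behind the deposited counts is not given in the sources used here.

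The docking site of the beta subunit on the pore, called the alpha interaction domain, is shown for both L-type members because it is where the products of the 4 beta genes attach. The coding sequences come from the same annotation and lie on the minus strand within 1 exon each, at chr6:118734906-118734959 for Cacna1c and chr14:30142600-30142653 for Cacna1d. Capitals mark the bases that differ between the genes.
Cacna1c: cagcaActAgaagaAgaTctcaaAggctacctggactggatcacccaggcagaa
Cacna1d: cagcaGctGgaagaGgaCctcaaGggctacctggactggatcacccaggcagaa
The genes share 49 of the 54 bases, 90.7%, and the 18 encoded residues are identical at all 18 positions. A beta subunit therefore meets the same residues at this site on either pore.

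Total counts ran from 5656512 to 9287413 per OHC and from 4677682 to 13792672 per cIHC. Reads came from a median of 6068.5 genes in an OHC and 8546 in a cIHC, so low genes were detected on unequal footing. Shares of cells were also computed after thinning each cell to 5770000 reads. Thinning evens the total counts, which already overlapped, and cannot remove the difference in genes per cell. The 4 hair cell markers Myo7a, Pou4f3, Myo6 and Ptprq summed to 2879 CPM over OHCs, against 2818 CPM over cIHCs. Singly they differed in both directions. Myo7a had 529.6 and 656.8 CPM, Ptprq 180.8 and 737.5, Pou4f3 630.7 and 306.2, and Myo6 1538 and 1117. The 6 OHC markers summed to 52871 and 978.7 CPM, and the 6 IHC markers to 1527 and 9580 CPM, in the direction of the labels. Number 49 of the cIHCs stood apart. It had the highest supporting cell, smooth muscle and fibroblast marker sums of the cIHCs, at 865.5, 66.7 and 593.9 CPM, against medians of 0, 0 and 0.13 CPM over all cIHCs. Among OHCs, number 22 had the highest supporting cell sum, 896.5 CPM, and of the 10 genes it held reads of Cacna1d (1237 CPM) and Cacna2d4 (1.596 CPM) alone.

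**Figure D1:**
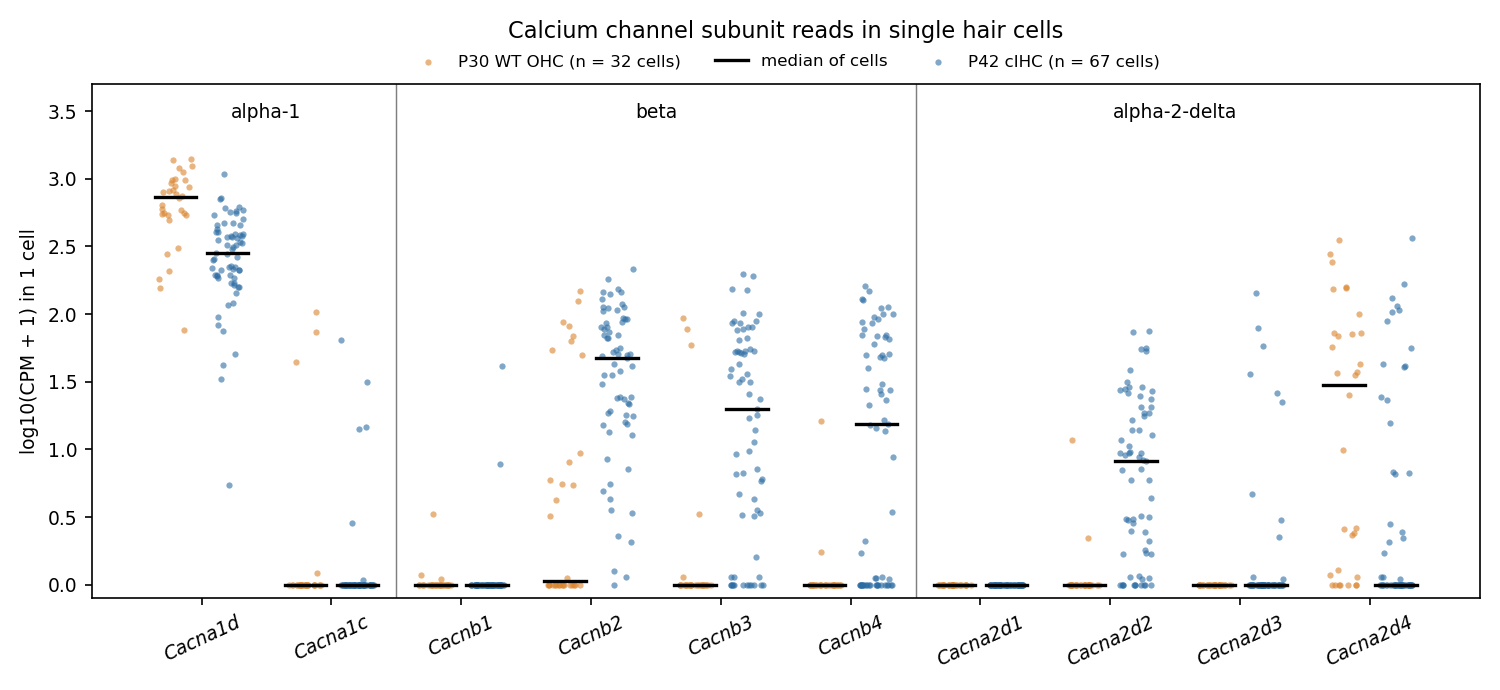
Level of each subunit gene in each cell, as log10(CPM + 1) on the vertical axis; points are cells (32 OHCs in orange, 67 cIHCs in blue, spread sideways for view) and black bars the medians of cells. Cacna1d had reads in every cell and lay lower in most cIHCs, while Cacnb2, Cacnb3, Cacnb4 and Cacna2d2 had median levels above 7 CPM in cIHCs and at or near 0 in OHCs.

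Cacna1d (Cav1.3) had by far the most reads of the 10 genes and a lower level in cIHCs. Its level in single OHCs had a minimum of 75.7 CPM, a median of 734.8 CPM and a maximum of 1401 CPM. In cIHCs the corresponding values were 4.50, 280.1 and 1076 CPM. Both groups had reads in every cell and the groups overlapped: 5 of 67 cIHCs lay below the lowest OHC and 5 of 32 OHCs above the highest cIHC. Pooled over cells, Cacna1d had 706.0 CPM in OHCs (exact Poisson 95% interval 702.6 to 709.3) and 310.5 CPM in cIHCs (309.0 to 312.0), which is 2.27-fold lower. The log2 ratio of cIHC over OHC was -1.18 (counting interval -1.19 to -1.18), or -1.49 after subtracting the median over all genes. Of the 2144 possible pairs of 1 cIHC and 1 OHC, the cIHC was the higher in 16.98%. Xist, taken as a mark of female cells, reached 10 CPM in 4 OHCs and 55 cIHCs, and a Y-linked gene did so in 24 OHCs and 12 cIHCs. In the Xist-positive cells the pooled Cacna1d levels were 696.2 and 327.9 CPM, and in the Y-positive cells they were 690.6 and 210.3 CPM, so the order was the same in both. The 4 Xist-positive OHCs ran from 208.7 to 1237 CPM, and the highest was number 22, the OHC with the highest supporting cell sum. The median log2 ratio of all genes was 1.65 in Xist-positive cells, 1.35 above that of all cells, so ratios given for Xist-positive cells stand against a much higher median.

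The 5 cIHCs with the least Cacna1d, at 4.50 to 74.2 CPM, all had hair cell and IHC transcripts. Their hair cell markers summed to 2242 to 4026 CPM and their IHC markers to 6034 to 13325 CPM. Over all cIHCs the medians were 2732 and 9548 CPM. Number 65 had the least Cacna1d and, of the 5, the lowest IHC sum, and it held 236.9 CPM of blood and macrophage markers and 86.7 CPM of supporting cell markers, against medians of 1.28 and 0 CPM. Of the other low cells, numbers 44, 50, 54 and 60 held 27.4 to 121.2 CPM of the blood and macrophage markers. Numbers 27 and 29 held 256.2 and 225.6 CPM of them and 85.2 and 109.5 CPM of the supporting cell markers. Their Cacna1d levels were 380.0 and 426.4 CPM, above the cIHC median of 280.1 CPM. The part of such reads in the Cacna1d level of number 65 was not tested. Cacna1d shares 589 bases of exon, 4.67% of its exon length, with Chdh on the opposite strand in GENCODE M21. Chdh was itself lower in cIHCs, at 27.8 against 144.1 CPM; strand use in the counting is not given in the sources used here, and the part of shared reads in the Cacna1d level was not tested.

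Cacna1c (Cav1.2), the L-type pore of heart and smooth muscle, was rare in both groups. Reads came from 4 of 32 OHCs, 12.5% (exact Clopper-Pearson 95% interval 3.51 to 28.99), and from 6 of 67 cIHCs, 8.96% (3.36 to 18.5). Only 3 OHCs and 4 cIHCs reached 10 CPM, with maxima of 102.2 and 62.9 CPM. The pooled levels of 7.82 and 1.99 CPM, a log2 ratio of -1.98, therefore rest on a few cells: 1 OHC held 44.1% of the OHC reads and 1 cIHC 51.6% of the cIHC reads. The direction was the opposite in Xist-positive cells, at 4.49 or more, since their 4 OHCs held no Cacna1c read, and without cIHC number 49 the ratio was -2.37. In Y-positive cells it was -8.12 or lower, since their 12 cIHCs held no Cacna1c read. Of the smooth muscle and pericyte markers, Acta2 had no read in any cell and the list summed to 0.012 and 2.12 CPM. The 3 OHCs with Cacna1c at 10 CPM or more had no read of that list. Of the 4 such cIHCs, number 49 had 66.7 CPM of it and held 25.2% of the cIHC Cacna1c reads. Number 56, with the most Cacna1c at 62.9 CPM, had 0.23 CPM of the list, and numbers 58 and 65 had 0. The part of such reads in the Cacna1c level was not tested.

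Per kilobase of exon, the scale on which different genes can be compared, Cacna1d was the dominant alpha-1 gene in both groups. Of the summed level of all 10 Cacna1 genes, Cacna1d made up 99.0% in OHCs and 92.1% in cIHCs, and Cacna1c 0.65% and 0.35%. Among the other 8 alpha-1 genes, 4 reached 1 CPM, and these 4 were at least 2-fold higher in cIHCs, against 34% of all genes at that level. Cacna1b, Cacna1f and Cacna1g were under 1 CPM in OHCs and passed the minimum through cIHCs alone, which fixes their direction. Cacna1g (Cav3.1), a low-voltage-activated T-type pore, was the highest, with 1 OHC and 25 cIHCs holding reads and pooled levels of 0.041 and 12.4 CPM. It made up 4.59% of the alpha-1 level in cIHCs. The remaining 3 were Cacna1a, Cacna1b and Cacna1f, at 3.55, 3.35 and 1.26 CPM in cIHCs; 1 cIHC held 98.1% of the Cacna1f reads.

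Of 16005 genes that reached 1 CPM in either group and had a ratio, 34% were at least 2-fold higher in cIHCs and 19.7% at least 2-fold lower, with a median log2 ratio of 0.31. Of the 8 calcium channel genes at that level, 5 were at least 2-fold higher (Cacnb2, Cacnb3, Cacnb4, Cacna2d2 and Cacna2d3) and 3 at least 2-fold lower (Cacna1c, Cacna1d and Cacna2d4). Their median log2 ratio was 1.91. Cacna2d3 and Cacna1c reached 1 CPM through a handful of cells, and Cacnb4, Cacna2d2 and Cacna2d3 were below 1 CPM in OHCs, so passing the minimum made a difference of some size necessary. The other 2 genes were Cacnb1, below 1 CPM in both groups, and Cacna2d1, without reads.

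**Figure D2:**
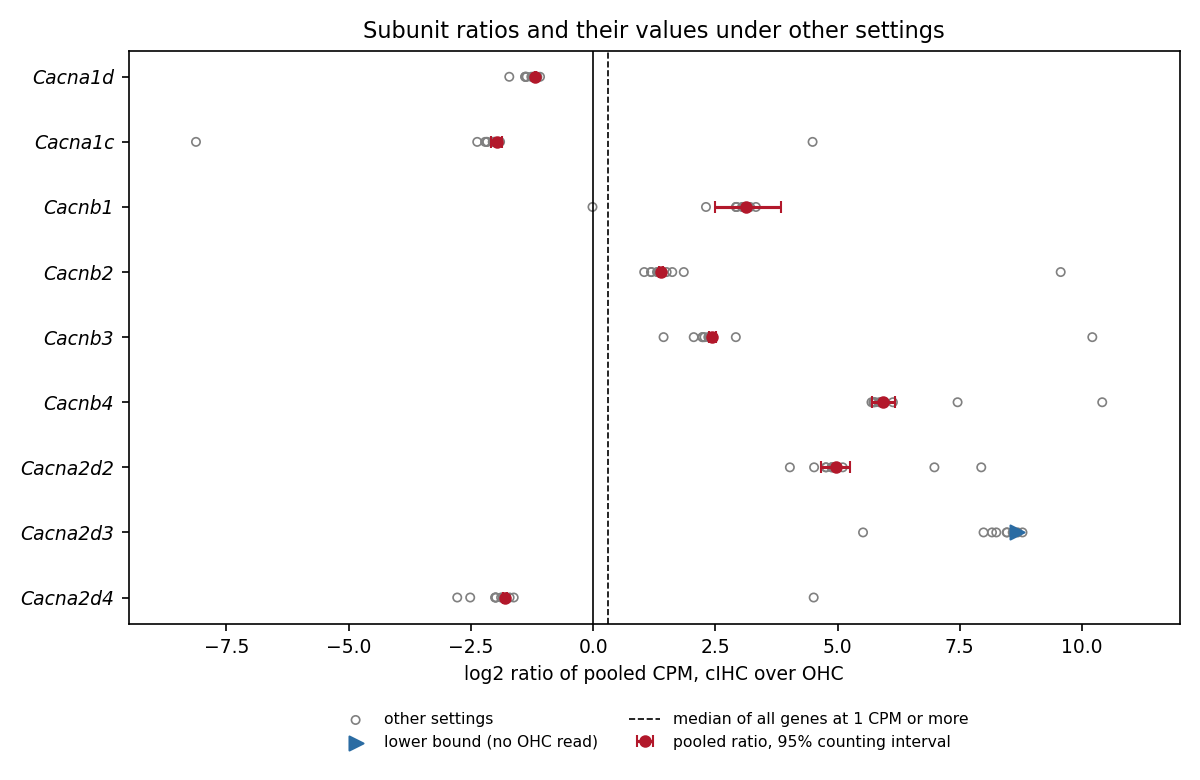
Log2 ratio of pooled CPM, cIHC over OHC, for the 9 genes with reads; filled points are the ratios with 95% counting intervals, the triangle is a lower bound, open circles are the other settings (a group without reads is set to 3 counts), and the dashed line is the median of all genes at 0.31. The beta genes and Cacna2d2 and Cacna2d3 lie to the right and Cacna1d, Cacna1c and Cacna2d4 to the left, with 1 open circle each of Cacna1c, Cacna2d4 and Cacnb1 on the other side of 0.

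Of the 4 beta genes, Cacnb2, Cacnb3 and Cacnb4 were higher in cIHCs and were read in a larger share of them, and Cacnb1 was nearly without reads. Cacnb2, a beta subunit that hair cells are known to need for Cav1.3 at the membrane, ran from 0 to 148.2 CPM over OHCs, with a median of 0.062 CPM, and from 0 to 212.9 CPM over cIHCs, with a median of 46.6 CPM. Reads were present in 16 of 32 OHCs (interval 31.9% to 68.1%) and 66 of 67 cIHCs (98.5%, 92.0 to 99.96); after thinning the shares were 41.4% and 98.5%. At 10 CPM or more, 8 OHCs and 55 cIHCs remained. The groups overlapped, with 3 cIHCs above the highest OHC. Pooled Cacnb2 was 21.6 CPM over OHCs against 56.4 CPM over cIHCs, which gives a log2 ratio of 1.39 (1.34 to 1.43), or 1.08 after subtracting that median. The median of single cells gives a ratio of 9.56 because the OHC median is close to 0. Cacnb2 shares 968 bases of exon with opposite-strand genes. One of these, Gm13269, was itself at 10.8 CPM over OHCs against 38.4 CPM over cIHCs, and its reads cannot be told apart from those of Cacnb2 over the shared bases without strand.

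Cacnb3, a beta subunit common in brain and smooth muscle, had reads in 5 of 32 OHCs (15.6%, 5.28 to 32.8) and 55 of 67 cIHCs (82.1%, 70.8 to 90.4). In OHCs it ran from 0 to 93.2 CPM with a median of 0, and in cIHCs from 0 to 196.0 CPM with a median of 18.9 CPM. The few OHCs with reads were not all low: 3 of the 5 lay above 10 CPM, within the range of the cIHCs. Pooled levels were 7.18 and 38.8 CPM, a log2 ratio of 2.44 (2.36 to 2.51), with 40.97% of the OHC reads in 1 cell. The ratio was 1.44 in Y-positive cells and 10.21 in Xist-positive cells, whose 4 OHCs had at most 0.14 CPM. No exon of Cacnb3 overlaps another gene in GENCODE M21.

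Cacnb4, the beta subunit lost in the lethargic mouse mutant, was nearly without reads in OHCs and was read in most cIHCs. Only 2 of 32 OHCs had reads (6.25%, 0.77 to 20.8), at 0.74 and 15.3 CPM. Of the 67 cIHCs, 45 had reads (67.2%, 54.6 to 78.2), and 37 reached 10 CPM, with a median of 14.5 CPM and a maximum of 160.2 CPM over all 67. The cIHC reads were spread widely, with no more than 7.61% of them in 1 cell. Pooled levels were 0.61 and 37.4 CPM, 61.2-fold higher in cIHCs, a log2 ratio of 5.93 (5.70 to 6.18). A single OHC held 95.9% of the 148 OHC reads, so that leaving out the top cell on both sides gives 10.41 on 6 remaining OHC reads. Of its exon length, 15.99% is shared with A430018G15Rik on the opposite strand, which had 1.10 and 2.94 CPM.

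Cacnb1, the beta subunit of skeletal muscle channels, was below 1 CPM in both groups, at 0.087 and 0.76 CPM. Its reads came from 3 OHCs and 2 cIHCs. The log2 ratio of 3.13 rested on 1 cell in each group. In cIHCs, number 49 held 88.8% of the reads, and without it the ratio was -0.01. In OHCs, 1 cell held 90.5% of the 21 reads. Without the top cell on both sides the ratio was 3.33, on 2 OHC and 46 cIHC reads.

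Single cIHCs also held reads of more beta genes than single OHCs, as they did of genes in general, with medians of 8546 and 6068.5 genes. How far the beta counts go beyond this general difference was not tested. Reads of no beta gene were found in 14 of 32 OHCs, of 1 in 10 and of 2 in 8, and no OHC had reads of 3. Every cIHC had reads of at least 1 beta gene: 4 had 1, 26 had 2, 36 had 3 and 1 had all 4. At 10 CPM or more, 22 OHCs and 1 cIHC were without a beta gene. After thinning, which does not remove the difference in genes per cell, 15 of 29 OHCs and 0 of 66 cIHCs were without reads of one. Of the 45 cIHCs with Cacnb4 reads all 45 also had Cacnb2 reads and 36 had Cacnb3 reads. Over all 67 cIHCs, 66 had Cacnb2 reads and 55 had Cacnb3 reads, so this overlap was close to what those shares alone give.

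**Figure D3:**
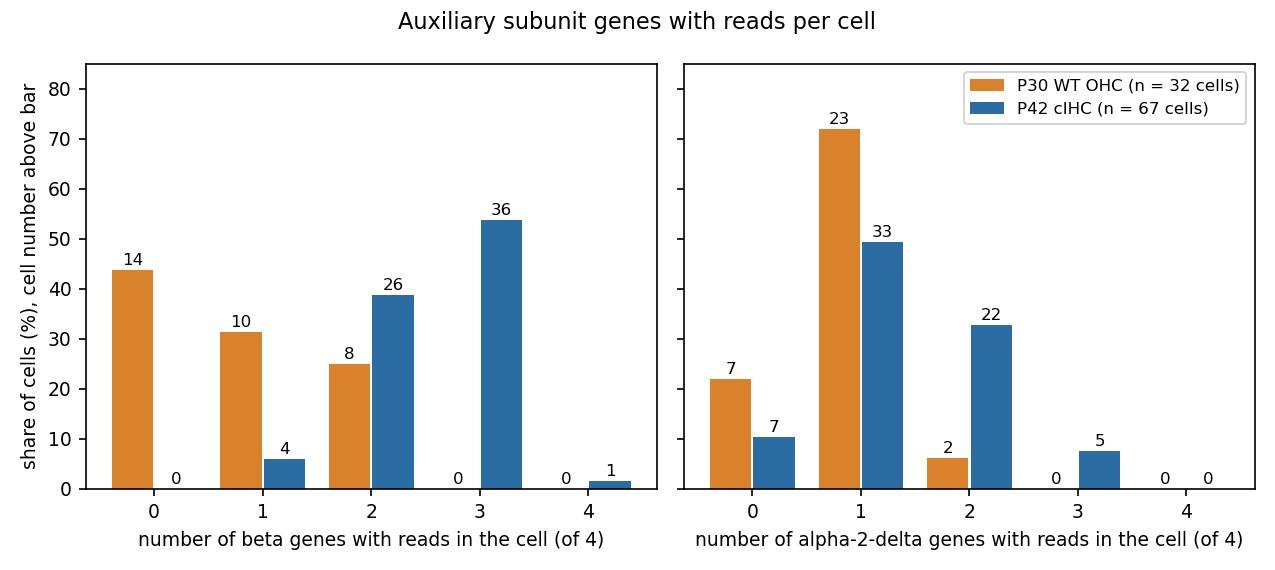
Number of the 4 beta genes (left) and of the 4 alpha-2-delta genes (right) with 1 or more reads in a cell, as the share of the 32 OHCs (orange) or 67 cIHCs (blue) on the vertical axis, with the number of cells above each bar. For beta, 14 OHCs and 0 cIHCs had none; for alpha-2-delta, 7 cells of each group had none.

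Summed over the 4 beta genes, the level per kilobase of exon (RPKM, the CPM divided by the exon length in kilobases) was 3.51 in pooled OHCs and 18.3 in pooled cIHCs, while that of all 10 alpha-1 genes was 56.5 and 26.7. The beta level was thus nearer to the pore level in cIHCs. Over single cells the summed beta level had a median of 0.30 RPKM in OHCs, with a range of 0 to 32.7, and of 16.2 RPKM in cIHCs, with a range of 0.011 to 66.2. In pooled OHCs Cacnb2 made up 46.5% and Cacnb3 51.03% of the beta level, but this order was set by a few cells: over the single cells with beta reads the mean shares were 76.2% and 20.1%. In pooled cIHCs Cacnb3 made up 52.96%, Cacnb2 23.3% and Cacnb4 22.8%. With the length of the longest transcript in place of all exons the cIHC shares were 47.1%, 37.1% and 15.1%, in the same order, and those of OHCs were 61.1% for Cacnb2 and 37.4% for Cacnb3, in the opposite order.

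**Figure D4:**
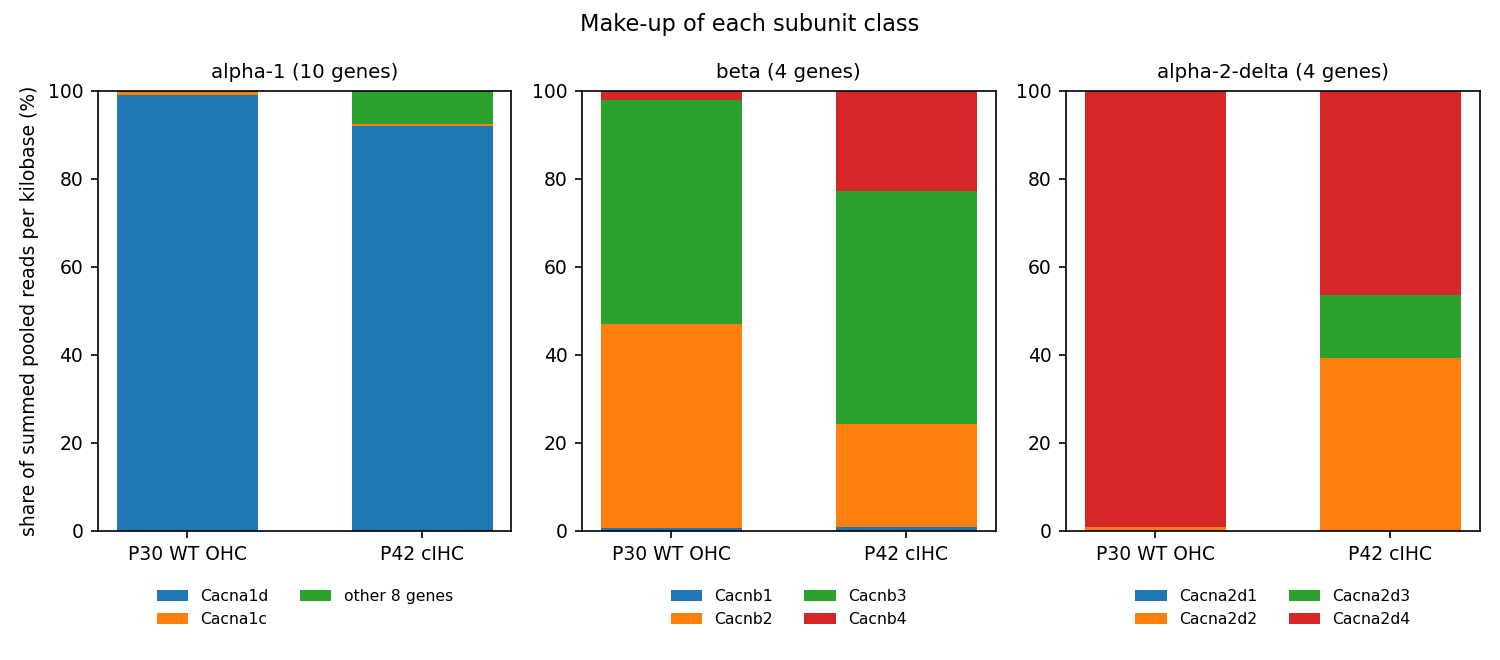
Share of each gene in the summed pooled reads per kilobase of its subunit class (vertical axis, in percent), in OHCs and cIHCs. Cacna1d fills 99.0% and 92.1% of the alpha-1 bars, Cacnb4 takes 1.94% and 22.8% of the beta bars, and Cacna2d4 takes 99.2% and 46.4% of the alpha-2-delta bars.

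The alpha-2-delta gene read in most cells differed between the groups: it was Cacna2d4 in OHCs and Cacna2d2 in cIHCs. Cacna2d2 is the gene mutated in the ducky mouse and is known to serve Cav1.3 in IHCs. Its reads were found in 2 of 32 OHCs (6.25%, 0.77 to 20.8), at 1.22 and 10.7 CPM, and in 56 of 67 cIHCs (83.6%, 72.5 to 91.5), or 83.3% after thinning. Over all cIHCs it ran from 0 to 73.6 CPM with a median of 7.26 CPM, and 25 cIHCs reached 10 CPM. It was thus widespread but low. Pooled levels were 0.40 and 12.5 CPM, 31.1-fold higher in cIHCs, a log2 ratio of 4.96 (4.67 to 5.26). One OHC held 88.7% of the 97 OHC reads, and without the top cells the ratio was 7.94 on 11 OHC reads. The cIHC was the higher in 81.7% of pairs.

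Cacna2d4, known from the channels of photoreceptors, showed the opposite pattern. In OHCs it ran from 0 to 353.6 CPM with a median of 29.3 CPM, and 25 of 32 cells had reads (78.1%, 60.03 to 90.7), 17 of them at 10 CPM or more. In cIHCs the median was 0 and 25 of 67 cells had reads (37.3%, 25.8 to 49.99), 14 of them at 10 CPM or more. The ranges overlapped fully, since the highest single cell was a cIHC, number 13, at 362.2 CPM with 25.4% of the cIHC reads. Pooled levels were 61.5 and 17.6 CPM, 3.49-fold lower in cIHCs, a log2 ratio of -1.80 (-1.84 to -1.77). The direction of the pooled ratio depended on which cells were used. The 4 Xist-positive OHCs held 0 to 1.64 CPM, and in Xist-positive cells the pooled ratio was 4.51. The medians and shares of cells did not reverse there. The median was 0.94 CPM in these OHCs, with reads in 3 of 4, and 0 in the cIHCs, with reads in 23 of 55. The 24 Y-positive OHCs had a median of 36.1 CPM, against 0 in the 12 such cIHCs, and the ratio there was -2.78.

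Cacna2d3, an alpha-2-delta gene of brain, had no read in any OHC, for which 3 cells of 32 give a limit of 9.38% and the exact Clopper-Pearson interval an upper end of 10.9%. It had reads in 11 of 67 cIHCs (16.4%, 8.49 to 27.5), 6 of them at 10 CPM or more, with a maximum of 142.0 CPM in number 18, which held 35.9% of the reads. The pooled cIHC level was 5.02 CPM, and with the OHC sum taken as 3 counts the log2 ratio is at least 8.66. Cacna2d1, the widely expressed alpha-2-delta gene that binds gabapentin, had no read in any of the 99 cells. The limit of 3 cells is 9.38% of OHCs and 4.48% of cIHCs, and the upper ends of the exact intervals are 10.9% and 5.36%. For the pooled level, the floor of 3 counts is 0.012 and 0.0055 CPM, and the exact Poisson upper ends are 0.015 and 0.0068 CPM. Of 21533 protein-coding symbols of the table found in GENCODE M21, 26.4% had no read in any cell.

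**Figure D5:**
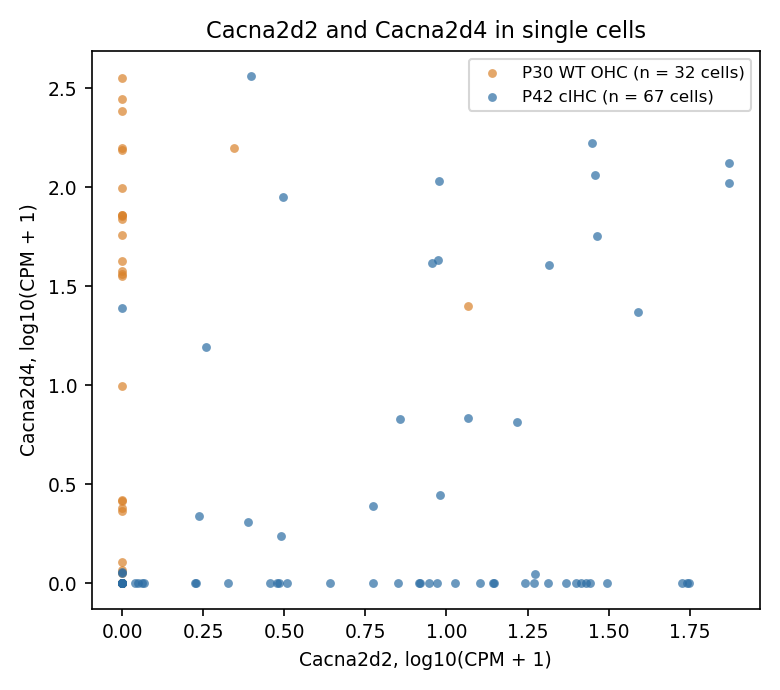
Cacna2d2 (horizontal) against Cacna2d4 (vertical) in each cell, both as log10(CPM + 1), for 32 OHCs (orange) and 67 cIHCs (blue). OHCs lie along the left edge, with Cacna2d2 reads in 2 of them, while cIHCs spread along the lower edge, where 34 have Cacna2d2 reads without Cacna2d4 reads.

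In the same cells, 23 OHCs had reads of Cacna2d4 without Cacna2d2, 2 had both, 7 had neither and 0 had Cacna2d2 alone. Of the cIHCs, 34 had Cacna2d2 alone, 22 had both, 3 had Cacna2d4 alone and 8 had neither. Per kilobase of exon, Cacna2d4 was above Cacna2d2 in 25 OHCs and Cacna2d2 above Cacna2d4 in 0, whereas in cIHCs Cacna2d2 was above in 43 and Cacna2d4 in 16. Cacna2d4 still made up 46.4% of the pooled alpha-2-delta level of cIHCs and Cacna2d2 39.2%, and 1 cIHC held 25.4% of the Cacna2d4 reads. Without the highest cell of each gene the shares were 43.5% and 44.96%. Averaged over the single cIHCs with reads of the class they were 22.6% and 67.9%. The summed alpha-2-delta level was 6.54 RPKM in OHCs and 4.00 RPKM in cIHCs.

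Reads of Cacna1d together with at least 1 beta and at least 1 alpha-2-delta gene were found in 15 of 32 OHCs (46.9%, 29.1 to 65.3) and 60 of 67 cIHCs (89.6%, 79.7 to 95.7). After thinning the shares were 37.9% and 87.9%, and at 10 CPM or more for each gene they were 25.0% and 47.8%. In 4 OHCs and 0 cIHCs Cacna1d was the only one of the 3 kinds with reads. Genes with reads were also more numerous in cIHCs in general, as given above, and the part of this in these shares was not tested. A transcript without reads in 1 cell may have been missed in the amplification of that cell, and how often this happened was not tested.

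Ordered by pooled RPKM, the genes of OHCs ran from Cacna1d (55.9) over Cacna2d4 (6.49), Cacnb3 (1.79), Cacnb2 (1.63) and Cacna1c (0.37) to Cacnb4 (0.068), Cacna2d2 (0.050) and Cacnb1 (0.019). The step from Cacna1d to Cacna2d4 held in all 32 cells. Cacnb3 and Cacnb2 could not be ordered: Cacnb3 was the higher in 4 cells and Cacnb2 in 14. In cIHCs the order was Cacna1d (24.6), Cacnb3 (9.68), Cacnb2 (4.26), Cacnb4 (4.17), Cacna2d4 (1.86), Cacna2d2 (1.57), Cacna2d3 (0.58), Cacnb1 (0.17) and Cacna1c (0.094). Cacna1d lay above Cacnb3 in 56 of 67 cIHCs. The next steps did not hold beyond the spread of cells, with Cacnb3 above Cacnb2 in 38 and below it in 29, and Cacnb2 above Cacnb4 in 41 and below it in 25.

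Within a group, the subunit genes did not follow each other closely from cell to cell. Correlations are given only as descriptions, across cells that share library chemistry and differ in depth. Over the 67 cIHCs, Spearman's rho of log2(CPM + 1) was -0.30 between Cacna1d and Cacnb2, -0.14 between Cacna1d and Cacnb3, 0.13 between Cacna1d and Cacna2d2, and 0.08 between Cacnb2 and Cacnb3. Tbx2 had a rho of -0.31 with Cacna1d, 0.14 with Cacnb2, 0.085 with Cacnb3 and -0.13 with Cacna2d2. Cacna1d had a rho of -0.26 with the number of genes with reads in the cell and of -0.21 with its total counts. Over the 32 OHCs, Cacna1d and Cacna2d4 had a rho of 0.21.

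Among the genes whose levels were most like that of Cacna1d from cell to cell were Lars2, Cdk5rap2, Gm6558 and Slain2 in cIHCs, with rho from 0.50 to 0.53 among 3936 genes searched over 67 cells. In OHCs they included Tanc2, Lamtor2, mt-Cytb and Cdc14a, with rho from 0.53 to 0.60 among 2342 genes over 32 cells. Being the highest of many, these values are raised by the choice itself. In the group where they were not chosen, Cdk5rap2 and Lars2 had a rho of 0.41 and 0.40 and the other 6 named here lay between -0.27 and 0.19.

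Of the gamma subunit genes, Cacng1 to Cacng8, 3 of 8 reached 1 CPM, with 2 at least 2-fold higher in cIHCs and 1 lower, against 34% and 19.7% of all genes. Cacng2 and Cacng4 passed the minimum through cIHCs alone and Cacng5 through OHCs alone, which fixes their direction. Cacng5, which belongs to the gamma proteins better known for regulating AMPA-type glutamate receptors, was the lower one. It had reads in 21 of 32 OHCs, up to 706.3 CPM, and in 1 of 67 cIHCs, with pooled levels of 94.9 and 0.19 CPM and a log2 ratio of -8.97 (-9.26 to -8.69). Cacng2 and Cacng4 had 3.24 and 2.24 CPM in cIHCs, from 12 and 7 cells.

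Among 22 regulators and partners of L-type channels, 20 reached 1 CPM. At least 2-fold higher in cIHCs were 11 of the 20, 2 were at least 2-fold lower and 7 lay within 2-fold, with a median log2 ratio of 1.21. Over all genes the shares were 34% and 19.7% and the median 0.31. Cabp1, Stac3 and Rem2 reached 1 CPM through cIHCs alone and Rrad through OHCs alone, which fixes their direction. Rims2, an active zone protein that tethers calcium channels near vesicles, had reads in 3 OHCs and 66 cIHCs and pooled levels of 4.09 and 137.5 CPM. Rimbp2, which links RIM proteins to the channel, had 11.2 and 55.99 CPM. The scaffold genes Bsn, Pclo, Erc1 and Tspoap1 had log2 ratios of 1.23, 1.95, 1.49 and 1.18, while the scaffold gene Erc2, at 89.2 and 122.4 CPM, had one of 0.46. Of the calcium-binding regulators, Cabp2, which limits inactivation of Cav1.3 in IHCs, had 1018 and 2643 CPM, and Cabp1 had 1 read in all OHCs and 13.4 CPM in cIHCs, from 34 cells.

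Stac, whose product slows inactivation of L-type channels, had 18.7 and 54.6 CPM, but 1 OHC held nearly all of the OHC reads. Rem2, of the RGK family of GTPases that inhibit calcium channels, had no read in OHCs and 11.9 CPM in cIHCs, from 24 cells, while its relative Rem1 had 50.3 and 62.6 CPM. The 2 lower genes, Rrad and Gem, belong to the same family, and each had its OHC reads in 1 cell. Gem had reads in 2 cIHCs. Without the top cell on both sides its log2 ratio was 4.31, with the OHC sum set to 3 counts. Ush1c, which encodes harmonin, had a log2 ratio of -0.65.

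Cells of other types that use these channels were looked for by their markers. The 5 neuron markers summed to 73.2 CPM in pooled OHCs, with cells from 0 to 386.0 CPM, and to 310.9 CPM in pooled cIHCs, with cells from 21.2 to 713.6 CPM. Nefl and Nefm had reads in 61 and 65 of the 67 cIHCs and in 17 and 13 of the 32 OHCs, while Prph had no read in any cell and Nefh none in OHCs and reads in 4 cIHCs. Tubb3 had reads in 1 OHC and 14 cIHCs, at 0.037 and 10.9 CPM. This sum was higher in cIHCs, as were Cacnb2, Cacnb3, Cacnb4 and Cacna2d2, and its part in their levels was not tested. The 8 supporting cell markers summed to 30.9 and 24.3 CPM and the 5 glia markers to 14.3 and 8.19 CPM, with a median of 0 over the cells of both groups. The 5 fibroblast and endothelium markers summed to 23.5 and 21.7 CPM. The 6 blood and macrophage markers summed to 3.22 and 52.8 CPM, with C1qa without reads in any cell, and C1qb without reads in OHCs and at 48.2 CPM in cIHCs, from 35 of the 67 cells. Their part in the levels of the channel genes was not tested. Without cIHC number 49, the log2 ratios of Cacna1d, Cacnb2, Cacnb3, Cacnb4 and Cacna2d2 were -1.18, 1.38, 2.45, 5.96 and 4.88.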

How the data were processed

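The authors deposited 1 table of read counts, whole numbers per gene symbol and cell. HISAT2 2.2.1, StringTie 2.2.1, featureCounts 2.0.1 and mm10 are named, without roles, per the submitters' processing notes; annotation, strand setting and filters are not given in the sources used here. Columns were matched to cells by title; 0 columns belonged to no sample and 0 pairs of columns within a group were identical. All 99 cells were used, with no filter on cells and no doublet caller. Cells called Xist-positive or Y-positive had 10 CPM or more of Xist or of Ddx3y, Eif2s3y, Kdm5d or Uty. No p-value was computed, as each group is 1 sample. Counts were summed over each group and divided by its total (pooled CPM). Ratios with both sums at or under 3 counts were not formed, and a sum of 0 was set to 3 counts. Intervals at 95% are exact Poisson (CPM), exact conditional binomial (ratios) and Clopper-Pearson (shares). Lengths are merged exons of GENCODE M21, which holds 96.4% of the symbols. The members and lists were chosen with earlier results of these data known. All 10 members are named; of the alpha-1, gamma and partner lists, genes at 10 CPM or more and 2-fold apart, plus up to 3 within 2-fold. Cacna1a, Cacna1b, Cacna1f, Cacng2, Cacng4, Rrad, Gem, Chdh, Gm13269 and A430018G15Rik were added after their values were seen. Genes most like Cacna1d had the 5 highest rho, searched over genes pooled to 50 CPM or more with reads in 75% or more of cells. Some genes that these rules name are not reported here. The ratio step was tested on simulated Poisson counts of well-read genes. These lack the spread between cells seen here, so that test covers the arithmetic alone and not ratios that rest on 1 cell. Software was Python 3.11.15, numpy 2.4.6, pandas 2.3.3, scipy 1.17.1, matplotlib 3.10.9 and edgeR 4.0.16 (TMM factors) in R 4.3.3.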

Additional observations from a re-analysis of the deposited data

How the results depend on the processing

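No paired analysis was possible because title numbers merely tell apart cells within each group, and no result here is a test. The log2 ratio of Cacna1d, -1.18, was negative under all 12 other settings: -1.39 with the median of CPM per cell, -1.38 with TMM, -1.39 with median of ratios, -1.23 and -1.26 with totals without mitochondrial or without the 10 most abundant genes, -1.36 without the 25% of cells with the fewest genes, -1.09 and -1.72 in Xist-positive and Y-positive cells, and -1.14 after thinning. TMM and median of ratios moved the median of all genes by -0.21 and -0.23, and Xist-positive cells by 1.35. Of the members, 5 were at least 2-fold higher and 3 lower. With the median of CPM per cell, which exists for 2 of them, these counts were 1 and 1 (all genes 44.7% and 9.89%). In Xist-positive cells 7 were higher and 1 lower (all genes 55.01% and 17.2%). At 4-fold 4 were higher and 0 lower (all genes 23.1% and 11.5%). In Xist-positive cells, with 4 OHCs, the pooled ratios of Cacna1c and Cacna2d4 reversed to 4.49 and 4.51. Without cIHC number 49, a setting chosen after seeing the data, that of Cacnb1 fell to -0.013, close to no difference. Shares of cells at low levels depend on depth and on the cut for detection: at 10 CPM, 25.0% of OHCs and 82.1% of cIHCs had Cacnb2, and 3.13% and 37.3% had Cacna2d2.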
